A study of Mus musculus with 6 samples.

Results

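The short blocks are runs of at least 3 listed m6A positions that lie close together and cover little ground. Distinct positions on chromosomes 1 to 19 were sorted and chained wherever neighbours were 100 bp or less apart, and a run was kept when its first and last positions were under 200 bp apart. The m6A values themselves were not used in this rule, which was meant to stand in for short internal exons. It gave 209977 positions in 49422 blocks, or 37.0% of the 567664 distinct positions of the series. A short block held a median of 4 positions and at most 27, and its span had a median of 92 bp (interquartile range 59 to 130 bp). The remaining 357687 positions were in medium blocks spanning 200 to under 400 bp (113115 positions in 12789 blocks), in long blocks of 400 bp or more (127430 positions in 7050 blocks), in runs of 1 or 2 positions (99792) or outside chromosomes 1 to 19 (17350).

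N6-methyladenosine (m6A) is the most common internal modification of mRNA. The METTL3 and METTL14 complex places it on an adenosine within the motif DRACH (D is any base but C, R a purine and H any base but G), with S-adenosylmethionine as methyl donor. It is known to be unevenly spread along a transcript. Exon junction complexes, left on the RNA near each splice junction, keep the writer away from nearby sequence, so that short internal exons carry little m6A, whereas long internal exons and last exons carry most of it. MTHFD1L is the mitochondrial enzyme that releases formate from the folate cycle, and one-carbon units from formate feed the methionine cycle that makes S-adenosylmethionine.

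The 6 samples were polyA RNA of HCICs, HCC-initiating cells kept as primary cultures from DEN-treated male mice. Cas9 was brought into the cells of both groups by lentivirus. The 3 MTH-WT samples were wildtype for Mthfd1l and came from single-cell colonies that had received the empty lentiCRISPRv2 vector. The 3 MTH-D samples were Mthfd1l knockout and came from single-cell colonies that had received guides against several Mthfd1l exons in the same vector. The colonies derived from 1 CTL line and 2 DKI lines (M2-C305F and MX-3SA double knock-in with wild-type p53), and the sample labels do not say which number is which line or how many colonies a sample holds. Of the 3 lines the study took HCIC-1 and HCIC-3 for its m6A comparison, since the deletion in HCIC-2 was small. Each library was sequenced directly as RNA on its own nanopore flow cell, and each value is the fraction of reads called m6A at a position, given here in percent. Neither coverage nor gene names accompany the fractions, so the depth is unknown and the knockout could not be checked in these values. A lower level can mean fewer modified molecules in every cell or fewer cells with modified molecules, which cannot be told apart in bulk RNA. No listed position was at 0 in all 6 samples, although 16.7% were at 0 in 5 of the 6. A position thus had at least 1 value above 0 to be listed, and the density of listed positions, from which the blocks were built, is to that extent not independent of m6A.

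The name of the blocks was checked over the first 59 Mb of chromosome 4, the stretch where positions matched an available annotation (of the build GRCm38) when counted from 0. There, 3501 positions in 806 short blocks were seen, of which 93.3% were on the adenosine of a DRACH motif and 94.3% were in exons of protein-coding genes. Of the 3301 exonic positions, 49.2% were in internal exons and 45.5% in last or single exons. All positions of 405 of the 806 blocks (50.2%) were in internal exons, and those of 314 (39%) were in last or single exons. Short blocks therefore held a mixture of exon kinds, and they are called short blocks and not short exons below. Medium and long blocks were more often in last or single exons, at 80.8% and 90.5% of their exonic positions. Within this stretch, short-block positions in internal exons averaged 2.50% ± 0.203 m6A in MTH-WT and 2.39% ± 0.290 in MTH-D (SD, n = 3), with all 6 samples between 2.15 and 2.71%. Those in last or single exons averaged 5.83% ± 0.445 and 5.75% ± 0.669 (SD, n = 3), with samples between 5.34 and 6.52%, so that the ranges of both exon kinds did not overlap. Internal exon positions were higher in medium blocks, at 14.8% in both groups over 214 positions of only 27 blocks. In long blocks they were at 21.2% in MTH-WT and 20.7% in MTH-D, over 126 positions of only 9 blocks. Last or single exon positions were below internal ones there, the reverse of the order in short blocks. In MTH-WT and MTH-D they averaged 9.65% and 9.44% in medium blocks, and 9.95% and 9.68% in long blocks. These values describe 1 chromosome stretch and were not tested.

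Short blocks were low in m6A in every sample. Mean m6A over their positions was 4.80%, 5.17% and 4.53% in the MTH-WT samples 1, 2 and 3, and 4.53%, 5.34% and 4.39% in the MTH-D samples 1, 2 and 3. The samples numbered 2 were the highest of each group, and the groups overlapped. Medium blocks averaged 9.79% in MTH-WT and 9.65% in MTH-D. Positions within 100 bp of an end of a long block averaged 9.82% and 9.66%, and those further inside averaged 12.1% and 11.9%. Lone positions and pairs of positions were lower than short blocks, at 3.10% and 3.04%.

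**Figure D1:**
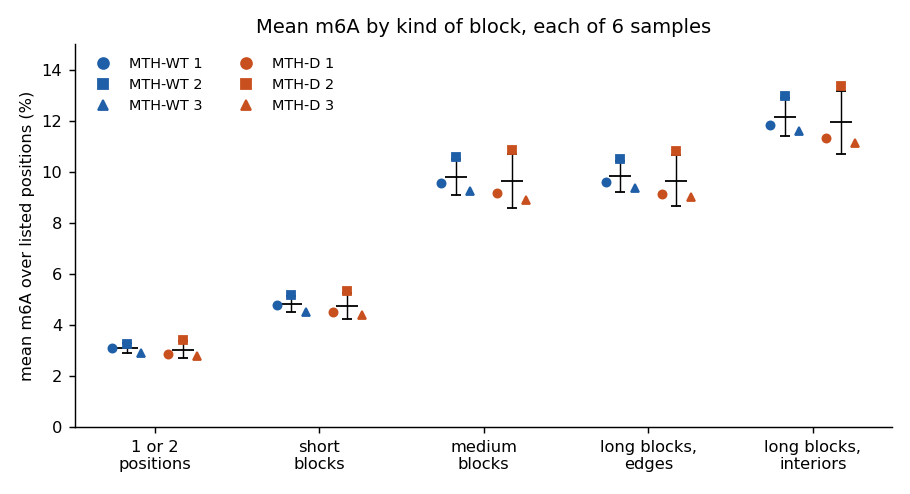
Mean m6A in percent (vertical axis, from 0) over the listed positions of each kind of block (horizontal axis). Each marker is 1 of the 6 samples, and the bars are the mean and SD of the 3 samples of a group. Short blocks lie between 4.39 and 5.34%, above lone or paired positions and below medium and long blocks in all 6 samples.

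The first question was whether short blocks differ from other listed positions within the same sample. Short-block positions were on average 3.35 percentage points lower than all other listed positions, with a range of -3.73 to -3.11 over the samples, and lower in 6 of 6 (two-sided exact sign-flip permutation test, p = 0.031, the smallest that 6 samples allow). Other positions were 1.68 to 1.72 times as high as short-block positions. The difference was -4.93 points against medium blocks, -4.95 points against long-block edges and -7.24 points against long-block interiors, each again lower in 6 of 6 samples (exact sign-flip permutation test, p = 0.031). Interiors of long blocks held 2.47 to 2.56 times the level of short blocks. Of the 8 exact tests made on mean levels, the 6 made within samples shared this p, and their Benjamini-Hochberg adjusted value was 0.0417 (exact permutation tests). These within-sample tests took the 6 samples as independent, whereas samples of the same number may be paired. Sign flips of 3 pairs could not give an exact permutation p below 0.25, so these p-values may be too small. Short blocks were lower than the other positions of the same chromosome in all 6 samples on 19 of 19 chromosomes, and their chromosome means ran from 4.20% on chromosome 14 to 5.68% on chromosome 7.

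The size and the direction of this difference depended on how far apart neighbours could be. With neighbours chained up to 50 bp, positions of short blocks averaged 7.63% against 6.07% elsewhere, a difference of +1.57 points in the opposite direction. Of the 302168 positions then in short blocks, 49.7% lay in medium or long blocks under the 100 bp gap and averaged 10.6%, whereas the 151952 that were also short at 100 bp averaged 4.72%. With neighbours chained up to 200 bp, positions of short blocks averaged 2.05%, and the difference grew to -6.03 points. When every block or lone position counted once, whatever its number of positions, the difference was only -0.0602 points, since the many runs of 1 or 2 positions then weighed more and were themselves low. It was -1.30 points when short blocks needed 5 or more positions, where the short blocks left out counted among the others.

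The lower mean came with fewer modified sites and with more values at 0. Sites, here positions with a 6-sample mean of 10% m6A or more, made up 9.73% of short-block positions (20440) against 17.1% of the other positions. Sites at 50% or more numbered 5610 (2.67%), and sites at 80% or more numbered 2119 (1.01%). Thus 37.0% of all listed positions supplied 25.1% of the sites at 10% or more and 21.8% of those at 80% or more. Among sites at 10% or more, short-block sites averaged 2.52 points less than the other sites in the same samples (37.2% against 39.7%, lower in 6 of 6 samples, exact sign-flip permutation test, p = 0.031). On average 38.6% of short-block values in MTH-WT samples and 36.0% in MTH-D samples were exactly 0, against 33.3% and 31.2% at other positions. At positions with no value of exactly 0 or 100%, a set chosen after seeing the data, short blocks averaged 12.7% and other positions 17.7%, a difference of -5.06 points.

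Most short blocks held no strongly modified position at all. In 38085 blocks (77.1%) no position averaged 10% or more, in 12.1% exactly 1 did, and in 10.9% there were 2 or more. In 46.7% of the blocks every position was under 2%. Among medium blocks the shares with no site at 10% and with every position under 2% were 38.5% and 9.49%. Medium blocks held a median of 8 positions, against 4 in short blocks. A block with more positions is less often without a site at an equal share of sites, so these shares are not a comparison of level. The median short block averaged 1.06% m6A, whereas 6152 blocks averaged 10% or more and 311 averaged 50% or more. The top 1% of short-block positions held 18.8% of the summed m6A, the top 5% held 59.4% and the top 10% held 76.2%. The mean level of short blocks therefore rested on a small share of their positions.

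Within short blocks, level rose with span. Positions of blocks spanning under 50 bp averaged 3.18%, those of 50 to under 100 bp 3.59%, those of 100 to under 150 bp 5.12% and those of 150 to under 200 bp 7.21%. The widest blocks were 4.02 points above the narrowest, higher in 6 of 6 samples (two-sided exact sign-flip permutation test, p = 0.031). The order held in both groups, at 3.21, 3.61, 5.17 and 7.27% in MTH-WT and 3.16, 3.56, 5.07 and 7.15% in MTH-D. Blocks with more positions were also mostly higher, from 3.61% with 3 positions to 5.03% with 5 and 7.49% with 10 or more. The rise was not steady, with 6.82% at 8 positions and 6.47% at 9. Span and number go together, so that each was also looked at within classes of the other. Blocks of exactly 3 positions averaged 3.49% at a span of 50 to under 100 bp, 4.65% at 100 to under 150 bp and 5.48% from 150 bp. From 3 positions to 6 or more, the mean went from 3.49 to 3.65% among blocks of 50 to under 100 bp, from 4.65 to 5.68% among those of 100 to under 150 bp and from 5.48 to 7.53% among those from 150 bp. Level was thus higher with 6 or more positions than with 3 in each span class, and least so in the narrower blocks. Span still varied within a class. Span and number both come from which positions are listed, so that neither is independent of m6A. The blocks were the same in all 6 samples. At the limit of the rule the values ran on without a step: blocks in the last 10 bp below 200 bp averaged 8.47%, and blocks in the first 10 bp from 200 bp, just outside it, 8.18%. Pairs of positions, just under the minimum of 3, averaged 3.15%.

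**Figure D2:**
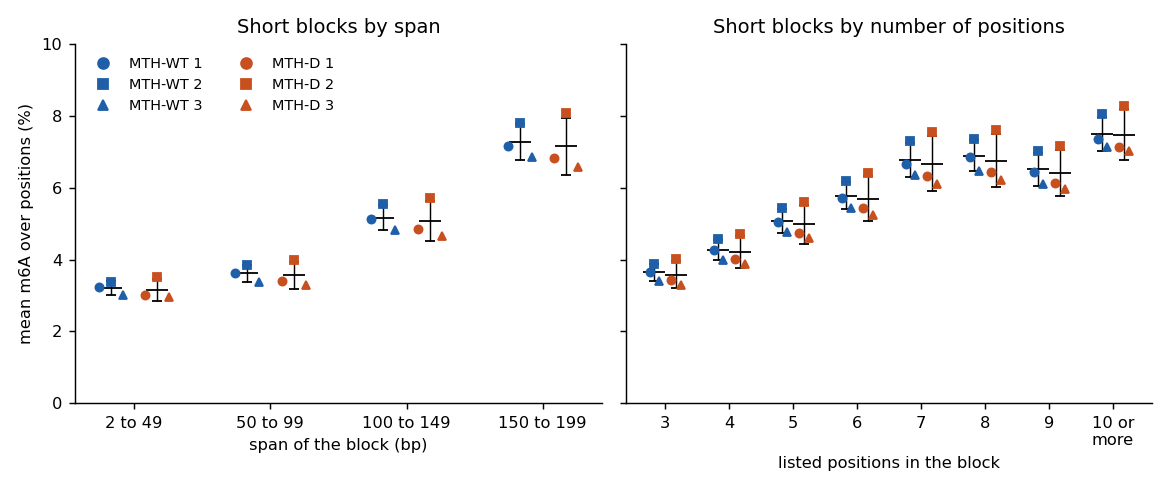
Mean m6A in percent (vertical axes, from 0) over short-block positions, by span of the block in bp (left) and by number of listed positions in the block (right). Markers are the 6 samples and bars the mean and SD of the 3 samples of a group. All 6 samples rise from 2.96 to 3.51% in the narrowest blocks to 6.57 to 8.07% in the widest.

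Level was also higher at positions further from the ends of a block, taken over all blocks. In short blocks, the outermost positions averaged 4.31%, positions 1 to 19 bp from the nearer end 4.30%, those 20 to 39 bp away 4.84%, those 40 to 59 bp away 6.22%, those 60 to 79 bp away 7.36% and those 80 to 99 bp away 7.98%. Since only wide blocks hold positions far from both ends, the test was limited to blocks spanning 80 bp or more. There, positions 40 bp or more from both ends averaged 6.73% and those nearer to an end 5.13%, a difference of 1.61 points that was higher in 6 of 6 samples (two-sided exact sign-flip permutation test, p = 0.031). Leaving out the outermost positions, which was decided after seeing the data, gave 1.47 points. Positions were pooled over all blocks spanning 80 bp or more, and the wider of them hold more of the inner positions. Span was thus not held fixed, and how much of the difference goes with span was not tested. At the same distance from an end, medium blocks ran from 8.40% at the outermost positions to 10.6% at 80 to 99 bp, and long blocks from 8.59% to 11.1%. At each of these distances short blocks were lower than both. The ends of a block are its outermost listed positions and are not exon ends.

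**Figure D3:**
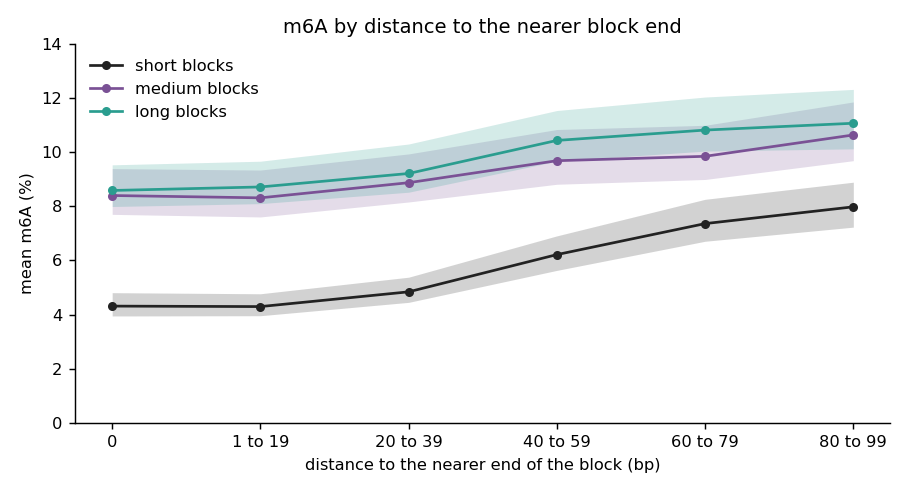
Mean m6A in percent (vertical axis, from 0) by distance to the nearer end of the block in bp (horizontal axis) for short, medium and long blocks. Lines are the mean of the 6 samples and bands run from the lowest to the highest sample. Short blocks rise from 4.31 to 7.98% and lie below medium and long blocks at every distance shown.

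Over all gaps between neighbours in short blocks 35.9% were a multiple of 3, and the share depended on the size of the gap. Gaps of 1 to 5 bp were rarely multiples of 3 (3.98%, against 56.6% with a remainder of 1), and among gaps over 30 bp the share was 35.8%. The low share at 1 to 5 bp is set by the motif. DRACH adenosines of 1 strand cannot lie 3 bp apart, because the C after the first would have to be a D. Of 86236 gaps of 6 to 30 bp, 40.6% were a multiple of 3, 30.5% left a remainder of 1 and 28.9% a remainder of 2. In medium and long blocks 38.2% and 37.2% of such gaps were multiples of 3. On the stretch of chromosome 4 described above, 57.0% of short-block positions were in coding sequence, against 31.4% in medium and 25.9% in long blocks. Levels of neighbours were weakly alike: across pairs of adjacent positions, which share a block and its reads, Pearson's r was 0.314 at gaps of 1 to 10 bp (36466 pairs) and 0.288 at gaps of 61 to 100 bp (19391 pairs). Differences between blocks made up 44.7% of the variance of the 6-sample means in short blocks and 29.9% in medium blocks. This share is larger for blocks with fewer positions even when level is unrelated to the block. Short blocks held a median of 4 positions and medium blocks 8, so the shares cannot be compared directly.

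A question of the study, whether loss of Mthfd1l changed m6A, was then asked of the short blocks. The paper reports lower global m6A in MTH-D cells, by dot blot and by nanopore sequencing of HCIC-1 and HCIC-3. The values here are from all 6 samples and from part of the positions, and are not the same measure. Mean m6A was 4.83% ± 0.319 in MTH-WT and 4.75% ± 0.511 in MTH-D (SD, n = 3), and the difference of -0.0793 points was within the spread of both groups (exact permutation test over 3 and 3 samples, two-sided, p = 0.90, with 0.10 as the smallest possible value). The samples were paired here by the numbers in the labels, which do not themselves state a pairing. MTH-D minus MTH-WT was -0.264 points for number 1, 0.170 points for number 2 and -0.143 points for number 3. These changes were -5.51%, 3.29% and -3.16% of the MTH-WT level. The sign of the mean difference turned when MTH-WT 2, MTH-D 1 or MTH-D 3 was left out (0.0883, 0.0304 and 0.103 points). MTH-D was lower on 19 of 19 chromosomes for numbers 1 and 3, and on 0 of 19 for number 2. Positions of 1 sample share a library, so the chromosomes are not independent. In the samples numbered 2, more values were exactly 0 than in any other sample (44.3% in MTH-WT 2 and 39.1% in MTH-D 2, against 31.9 to 38.9% elsewhere), and more were exactly 100% (0.154% and 0.148%, against 0.0524 to 0.0848%). Whether this plays a part in their difference was not tested.

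**Figure D4:**
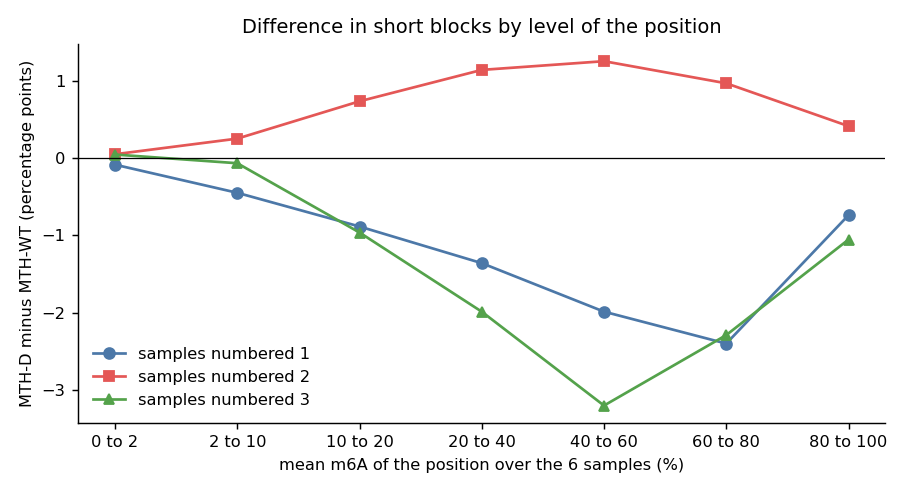
Difference in mean m6A, MTH-D minus MTH-WT, in percentage points (vertical axis) of short-block positions grouped by their mean over all 6 samples (horizontal axis, in percent), for the samples numbered 1, 2 and 3. At 40 to 60% the differences are -1.99, 1.26 and -3.20 points.

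The differences between paired samples were wider, in points, at positions averaging 20 to 80% than at lower or higher ones. At positions averaging 40 to 60% m6A, of which there were 3014, MTH-D minus MTH-WT was -1.99 points for number 1, 1.26 points for number 2 and -3.20 points for number 3. At 60 to 80% they were -2.40, 0.971 and -2.29 points, so that number 1 differed most there and numbers 2 and 3 at 40 to 60%. At positions of 80% or more the differences were -0.737, 0.416 and -1.05 points. Under 2%, where 154883 of the short-block positions lay, they were -0.0832, 0.0521 and 0.0484 points. The other positions gave much the same values at 40 to 60%, with -2.36, 1.38 and -2.92 points. The difference between MTH-D and MTH-WT was 0.0524 points less negative in short blocks than in other positions, which was not distinguishable from the spread between samples (two-sided exact permutation test, p = 0.60).

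Tests of single positions and blocks gave no call after adjustment. Among 567664 positions tested with limma, 0 passed an adjusted p of 0.05, and the smallest adjusted p of a short-block position was 0.117. At an unadjusted p under 0.05, 6549 short-block positions (3.12%) were called, against 3.22% of all positions. Of them 3148 (1.5%) were lower and 3401 (1.62%) higher in MTH-D, against 1.55% and 1.67% of all positions. When each block was averaged first, 0 of 49422 short blocks passed in limma, with a smallest adjusted p of 0.0965. At an unadjusted p under 0.05, 2342 short blocks (4.74%) were called, against 3.8% of all blocks of 3 or more positions. Of them 1175 (2.38%) were lower and 1167 (2.36%) higher, against 1.91% and 1.89% of all such blocks. That background held 69261 blocks, 49422 of them short, and 2632 calls, 2342 of them in short blocks. Short blocks also average over fewer positions than the medium and long blocks in it. The samples numbered 1 and 3 alone also gave 0 adjusted calls in limma, with 15562 short-block positions (7.41%) at an unadjusted p under 0.05, against 7.4% of all positions. Leaving out 1 sample raised the count of 6549 by over 1.5 times for MTH-D 2 (10846, 5.17% against 5.34% of all positions), MTH-WT 1 (10283, 4.9% against 4.82%), MTH-D 1 (9971, 4.75% against 4.74%) and MTH-WT 3 (9878, 4.7% against 4.62%).

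Counted by size of difference, shares of positions were close to the background, whereas shares of blocks were above it in both directions. Of the 20440 short-block positions at 10% m6A or more, 3198 (15.6%) were at least 5 points lower in MTH-D and 2103 (10.3%) at least 5 points higher, against 15.2% and 9.27% of all such positions. The 3 values of each group did not overlap at 721 short-block positions that were lower (3.53%) and at 459 that were higher (2.25%), against 3.38% and 2.07% of all such positions. Of the 6152 short blocks averaging 10% or more, 158 (2.57%) were at least 5 points lower and 83 (1.35%) at least 5 points higher, against 1.44% and 0.711% of all such blocks. The groups did not overlap in 160 lower (2.60%) and 98 higher blocks (1.59%), against 2.08% and 1.18%. Short blocks average over fewer positions than the medium and long blocks in that background. In the samples numbered 1 and 3 together, 4677 short-block positions (22.9%) were at least 5 points lower and 2152 (10.5%) at least 5 points higher, against 22.5% and 9.47%. In the samples numbered 2, 4134 (20.2%) were lower and 5517 (27.0%) higher, against 19.3% and 26.3%.

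The level of a block was much alike in all samples, whatever its group. Pearson's r of the block means between any 2 samples, across 49422 blocks and as a description, was 0.972 to 0.982. For blocks at 10% or more, the median SD of a block mean was 2.38 points among MTH-WT samples and 2.85 points among MTH-D samples.

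The 10 short blocks with the highest m6A averaged from 76.7% to 95.4% over the 6 samples. They were chosen for their level and are named by position in the build GRCm39, which the submitters' processing notes name. The deposited positions, which count from 0, were raised by 1 so that the printed ones count from 1. The highest was chr19:5619225-5619257, whose 3 positions averaged 95.6%, 93.1% and 97.3% in the MTH-WT samples and 96.3%, 100% and 90.2% in the MTH-D samples. The block chr15:76598592-76598663 held 4 positions and averaged 90.8%, 95.8% and 92.4% in MTH-WT and 89.8%, 94.7% and 91.0% in MTH-D. In neither block did the groups separate. The others of the 10 highest were chr2:84554296-84554362 (86.7% over the 6 samples), chr11:83331951-83332050 (85.9%), chr11:94554930-94554996 (84.5%), chr8:84665435-84665486 (84.4%), chr2:34666166-34666200 (84.1%), chr13:29135190-29135275 (77.9%), chr1:136554688-136554768 (77.6%) and chr4:11961453-11961550 (76.7%).

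A high block did not have to be high throughout. In chr4:11961453-11961550, 5 positions averaged 80.6%, 98.0%, 29.6%, 78.5% and 96.7% over the 6 samples, the third of them 64 bp from the second and 8 bp from the fourth. In chr2:34666166-34666200 the first 2 positions, 8 bp apart, averaged 96.9% and 93.1%, and the last, 26 bp further on, 62.1%. In chr13:29135190-29135275 the first position averaged 47.1% and the others 96.0% and 90.6%. Lower positions of this kind were lower in all 6 samples. At the top of the scale, 19 short-block positions were at 100% in all 6 samples, and with no coverage given the number of reads behind them is unknown. Of these ties the first 10 in order of chromosome name were position 125324925 on chromosome 1, 79643420 on chromosome 10, 25767280 on chromosome 13, 31593096 and 80096289 on chromosome 15, 4215549 on chromosome 19, 36037948 on chromosome 2, and 19950315, 79500921 and 107239189 on chromosome 3. Of these 10 positions, 3 were the outermost position of their block.

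The blocks that moved most between the groups were picked for groups that did not overlap and are a description. The largest fall was in chr9:13245874-13245928, which had 49.4%, 55.0% and 42.9% in the MTH-WT samples and 36.3%, 37.9% and 29.8% in the MTH-D samples, a difference of -14.4 points. Most of it came from the last of its 3 positions, which averaged 38.6% over the 6 samples and differed by -27.1 points, while the first differed by -5.84 and the second by -10.3 points. Next came chr2:37319137-37319179 with -11.4 points (20.4, 31.9 and 22.7% against 10.95, 18.1 and 11.6%). The other falls were chr1:106469748-106469925 with -10.2 points, chr5:129579083-129579129 with -10.2 points and chr1:21066763-21066911 with -9.85 points. In the last of these, MTH-WT 2 and MTH-D 2 stood side by side, at 43.28% and 43.26%.

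The largest rise was in chr5:23638581-23638686, from 16.7%, 26.8% and 21.8% in the MTH-WT samples to 30.3%, 34.6% and 40.3% in the MTH-D samples, a difference of 13.3 points. It rested on 1 of its 3 positions, which went from 33.3, 73.3 and 50% to 64.3, 89.5 and 100%. The other rises were chr8:130011481-130011549 (9.69 points), chr8:27641765-27641874 (8.85 points), chr2:167316402-167316471 (8.44 points) and chr13:42311224-42311391 (7.51 points). In the last of these MTH-WT 2 was at 6.36%, against 19.22 and 18.97% in the other MTH-WT samples, and MTH-D 1 was at 19.4%. All 20 named blocks had an adjusted p of 1 in limma, with an unadjusted p of 0.00933 for the largest fall and 0.00998 for the largest rise.

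**Figure D5:**
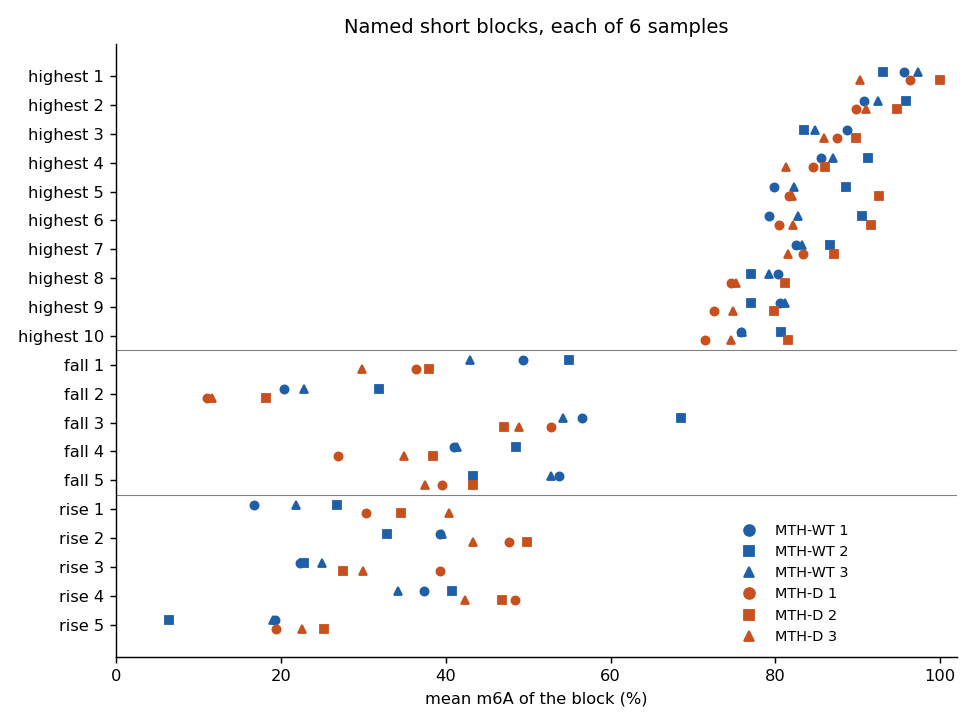
Mean m6A in percent (horizontal axis, from 0) of the 20 named short blocks in each of the 6 samples: the 10 highest, the 5 largest falls and the 5 largest rises in the order in which the text names them. Blue is MTH-WT and orange MTH-D. The groups are apart in the falls and rises because they were picked for that, and they overlap in each of the 10 highest blocks.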

How the data were processed

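Poly(A) RNA of 6 HCIC samples was sequenced directly with SQK-RNA004 chemistry (1000 ng each, 1 flow cell per sample, up to 72 h, all in batch 1). The authors deposited a table of the m6A fraction (0 to 1) at 567667 rows, of which 3 repeat a position and were averaged. Per the labels, the submitters' processing notes name minimap2 2.26, SAMtools and GRCm39; the modification caller, the filters and the coverage are not given in the sources used here. No genome or annotation of GRCm39 was used here, so motifs, exon places and gene names, and a minimum of coverage, could not be analysed beyond the check on chromosome 4, which was chosen after seeing the data and in which no coordinate was converted.

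Fractions were turned into percent. Groups and numbers came from the labels. Nothing says that samples of a group are separate animals other than the 3 lines, so p-values measure the spread between these samples, which may be partly technical. Sample means were compared by exact permutation over samples, and positions and block means by limma 3.58.1 in R 4.3.3 on log2((percent + 1)/(100 - percent + 1)) over the whole table, with Benjamini-Hochberg adjustment. The limma code was tried on simulated positions whose planted shifts were far larger than the differences of the named blocks. That trial checks the code and does not show whether changes of the size seen here would be found. The deviations from the group mean, compared between the MTH-WT and MTH-D sample of each number, gave Pearson's r of 0.174, 0.214 and 0.108 over 20440 positions. Between unlike numbers r ran from -0.151 to -0.00293. Deviations from a group mean sum to 0, so these values are not independent. The labels state no pairing, and the study calls the cells paired. What samples of the same number share was not tested. Named were the 10 highest blocks, the 5 largest rises and the 5 largest falls among blocks at 10% or more with groups that did not overlap (none on chromosome 18), and the 10 highest positions. The members and the rules were chosen with earlier results of these data known.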

Additional observations from a re-analysis of the deposited data

Results flagged for a closer look

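The difference in mean m6A of short-block positions had the opposite direction in the samples numbered 2, where MTH-D was 0.170 percentage points above MTH-WT, from that in the samples numbered 1 and 3, where it was -0.264 and -0.143 points. With 1 sample of each group per number, the difference between the pairs was not tested.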

How the results depend on the processing

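The MTH-D minus MTH-WT difference in short blocks was -0.0793 points with and without the replicate block (exact sign flips of 3 paired differences, permutation p = 0.75, smallest possible 0.25) and ran from -0.371 to 0.103 points when 1 sample was left out. In the samples numbered 1 and 3 alone it was -0.204 points (exact permutation p = 0.667, smallest possible 0.333). As the difference of medians over positions it was 0.0567 points, the opposite direction. Its difference from that of other positions, 0.0524 points, was -0.0761 to 0.256 with 1 sample left out, -0.00667 for medians and -0.0071 with a gap of 50 bp. That gap also turned the difference between short blocks and other positions to 1.57 points. The samples numbered 1 and 3 gave -3.18 points for it (exact permutation p = 0.125, the smallest that 4 samples allow). The cause was not tested. With 1 sample left out, the exact p could not go below 0.0625 with 5 samples, and the within-sample differences ran from -3.40 to -3.27 against other positions, -5.01 to -4.81 against medium blocks, -5.02 to -4.84 against long-block edges, -7.34 to -7.09 against interiors, 1.57 to 1.64 for distance to the end and 3.92 to 4.11 for span. They kept their direction. In limma, unadjusted calls among short-block positions were 6147 with the replicate block (2.93%, against 3.05% of all positions), 9422 to 10846 with 1 sample left out (4.49% for MTH-D 3 and 5.17% for MTH-D 2, against 4.44% and 5.34%), 15562 in the samples numbered 1 and 3 (7.41% against 7.4%) and 565 when only positions at 10% or more were tested (2.76% against 2.47%). Those among short blocks were 2906 with the replicate block (5.88%, against 4.8% of all blocks), 2170 to 2752 with 1 sample left out (4.39% for MTH-D 3 and 5.57% for MTH-D 2, against 3.51% and 4.67%) and 147 when only blocks at 10% or more were tested (2.39% against 1.43%), a smaller set by construction. Adjusted calls were 0 in each of these fits, and from 0 to 0 with 1 sample left out. The replicate block was used only for comparisons of MTH-D with MTH-WT. With it, the 0.0524 points gave p = 0.50 (exact sign flips of 3 paired differences, smallest possible 0.25). The within-sample tests were not run with it. An alternative with a minimum of coverage was not run, since no coverage is given. What depth limits is therefore unknown, and values at 0 or 100% may rest on few reads.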

Other observations

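Short blocks of the X chromosome, chained by the same rule but outside the members, numbered 1546 with 6530 positions. They averaged 3.95% ± 0.244 m6A in MTH-WT and 3.88% ± 0.347 in MTH-D (SD, n = 3). Medium and long blocks there averaged 6.26% and 7.40% in MTH-WT and 6.11% and 7.26% in MTH-D, and in each sample the order was the same, with short blocks lowest and long blocks highest.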
